A study of Mus musculus with 2 samples.

Results

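The H19-Igf2 domain on distal mouse chromosome 7 was examined together with the muscle genes beside it. Its 9 members, in chromosomal order, were Syt8, Tnni2, Lsp1, Tnnt3, Mrpl23, Nctc1, H19, Igf2 and Ins2, of 55413 genes in the annotation. Members were taken by position: gene bodies, windows of 1 kb on either side of each start, and the intergenic gaps from Lsp1 to Ins2. CpG cytosines were kept if they had at least 5 reads in each library and lay outside the recognition sites of the enzymes used, CCGG and TCGA. This left 387 cytosines of 223 CpGs in the domain, of 1850635 in the whole data set, and 8 of the 9 genes had at least 1 of them.

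Methylation was read by reduced representation bisulfite sequencing. DNA is cut with MspI and TaqαI, size-selected and treated with bisulfite so that unmethylated cytosines are read as T. Both libraries came from myotubes differentiated in culture from mouse C3H myoblasts, a commercial cell line, and harvested 48 h after transfection. The siCon library received a control short interfering RNA and the siH19 library an H19-specific one, and both were differentiated in medium low in horse serum. There was 1 library per group, so every p-value below compares 2 libraries and not 2 conditions, and the intervals cover counting error only. Reads of a window are summed over its cytosines, and neighbouring cytosines are read on the same molecules. Except where the variance was scaled by the spread between fragments, tests and intervals of regions count them as independent. Such intervals can be too narrow, and such p-values too low, even for counting error. Summed over cytosines, the siCon library held 104999613 reads and the siH19 library 106372792. Methylation data do not show RNA, so neither the loss of H19 RNA nor the muscle identity of the cells could be checked from them. The 7 testable promoter windows of 10 muscle identity genes ranged from 0 to 72.7% in siCon and from 0 to 80% in siH19. That of Myod1, a master regulator of the muscle lineage, was at 34.1% and 39.4%, and that of Acta1, skeletal muscle actin, at 12.8% and 11.7%. Myog was at 72.7% and 80%, and Myf5 at 60.6% and 55.2%.

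H19 and Igf2 are imprinted in opposite directions. H19, a long non-coding RNA, is transcribed from the maternal chromosome, and Igf2, which encodes a fetal growth factor, from the paternal chromosome. An imprinting control region upstream of H19 carries methylation on the paternal allele, and on the unmethylated maternal allele it is bound by CTCF, an insulator protein that keeps shared downstream enhancers from reaching Igf2. In skeletal muscle these enhancers include the core muscle enhancer, which lies in an intron of the non-coding gene Nctc1. The comparison asked whether knockdown of H19 RNA was accompanied by a change of methylation in its own neighbourhood.

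The sequences that the results turn on are given for GRCm38 and credited to its RefSeq assembly. Capitals mark the CpGs with a covered cytosine outside the restriction sites. The stretch of Nctc1 intron 2 is shown because it holds the covered CpGs of the core muscle enhancer window. Of the 11 CpGs in its 233 bases, 9 were covered outside sites, and the others belong to 1 TCGA and 1 CCGG.
Nctc1 intron 2, chr7:142551051-142551283, plus strand: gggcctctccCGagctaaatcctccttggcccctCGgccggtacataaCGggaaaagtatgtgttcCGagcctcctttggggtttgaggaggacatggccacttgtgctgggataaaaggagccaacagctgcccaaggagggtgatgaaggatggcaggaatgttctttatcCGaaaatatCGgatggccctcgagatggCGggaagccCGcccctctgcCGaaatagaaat
The stretch around the H19 start is shown because it holds the covered CpGs just upstream of the knocked-down gene. H19 is transcribed toward lower coordinates, so the gene occupies the left end of the stretch and its upstream side the rest.
H19 start, chr7:142578094-142578393, plus strand: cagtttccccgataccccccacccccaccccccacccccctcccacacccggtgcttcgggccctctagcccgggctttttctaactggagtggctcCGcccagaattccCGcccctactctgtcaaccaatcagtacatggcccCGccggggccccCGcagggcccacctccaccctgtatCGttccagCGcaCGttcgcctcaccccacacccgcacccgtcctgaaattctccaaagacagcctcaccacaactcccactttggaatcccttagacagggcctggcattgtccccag
The 250 bases before the start of Tnni2, the inhibitory subunit of fast skeletal troponin, are shown because its promoter window was over 90% methylated in both libraries.
Tnni2 upstream, chr7:142441558-142441807, plus strand: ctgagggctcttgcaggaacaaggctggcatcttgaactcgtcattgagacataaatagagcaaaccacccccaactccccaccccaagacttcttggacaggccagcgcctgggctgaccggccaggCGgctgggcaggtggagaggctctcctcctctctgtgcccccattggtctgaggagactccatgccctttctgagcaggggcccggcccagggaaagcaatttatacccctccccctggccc
In the imprinting control region the CTCF motif, searched on both strands, occurred 3 times, each on the minus strand. The pattern searched was the run in capitals below, with any base allowed at the sixth and the ninth letter, and it overlapped no other motif searched. The same motif was found in 5 of 55413 windows lying 2 to 4 kb upstream of a gene start, or 0.00902%. The matches are printed in the direction of the motif, with the motif in capitals.
Motif 1, chr7:142580301-142580330, minus strand: agacgatgCCGCGTGGTGGCAGtacaatac
Motif 2, chr7:142580756-142580785, minus strand: ggatgctaCCGCGCGGTGGCAGcatactcc
Motif 3, chr7:142582026-142582055, minus strand: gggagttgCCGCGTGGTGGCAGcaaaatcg
A match describes these letters and is not evidence that the protein was bound.

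Over all 387 cytosines, the domain was at 33.2% methylation in siCon (Wilson 95% interval 32.2 to 34.1%, 9527 reads) and 34.7% in siH19 (33.7 to 35.6%, 9817 reads). The same pooled levels over the genome were 25.6% and 25.1%. Intermediate levels between 20 and 80% were held by 38.5% of the domain cytosines in siCon and 37.2% in siH19, beside 25.8% and 26.2% of all cytosines. Differences between libraries were small and went both ways. Of the 387 cytosines 172 were higher in siH19, 152 were lower and 63 were equal, and the median difference was 0. Because reads fell on different cytosines in the 2 libraries, differences over a region were computed within each cytosine and averaged by the Mantel-Haenszel method. Over the domain this difference was 0.729 points (95% interval -0.299 to 1.757), siH19 minus siCon, beside 0.244 points over the genome.

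**Figure D1:**
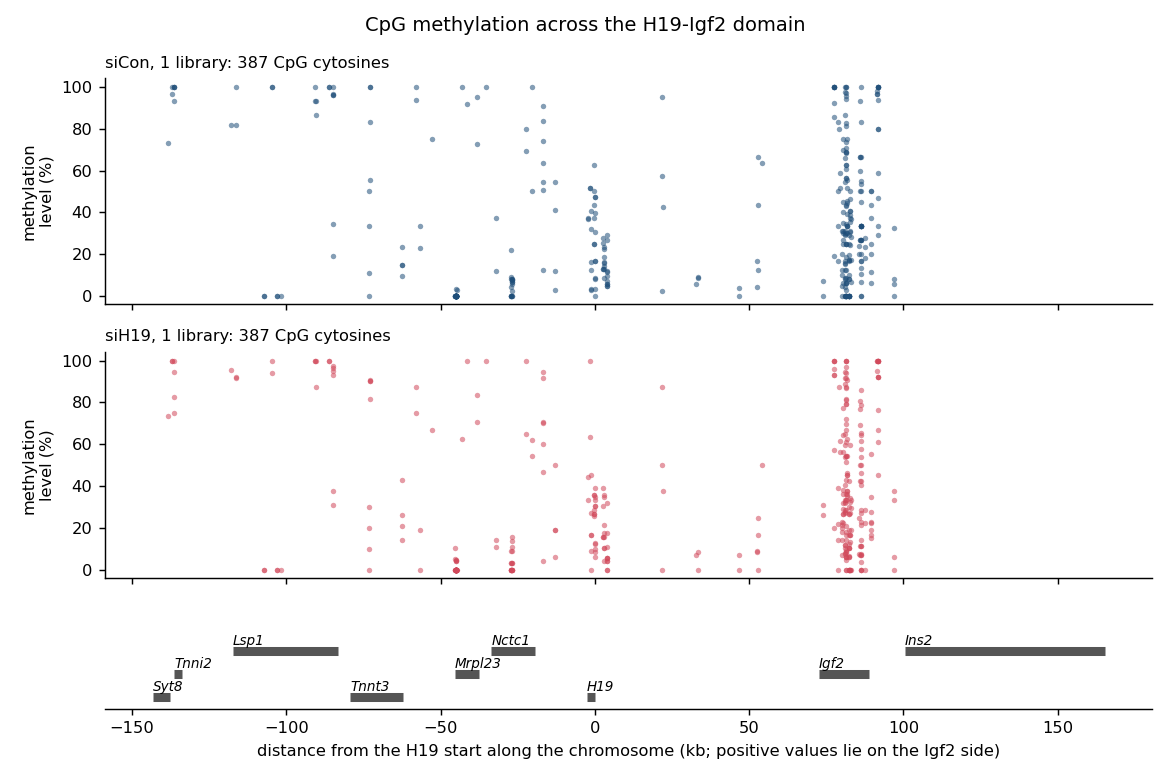
Methylation level (%) of each of the 387 covered CpG cytosines against the distance from the H19 start in kb, for the siCon library (top) and the siH19 library (middle), with the bodies of the 9 genes (bottom). The cytosines gather around H19 and in Igf2, levels in Igf2 spread from 0 to 100% in both libraries, and no cytosine was covered in the body of Ins2.

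No cytosine of the domain passed an adjusted p of 0.05 by Fisher's exact test with Benjamini-Hochberg adjustment over all cytosines, where 0.00648% of all cytosines did. At an unadjusted p under 0.05, 16 of the 387 stood out, which is 4.13% beside 2.53% of all cytosines. Of these, 6 were higher in siH19, beside 1.34% of all cytosines, and 10 were lower, beside 1.19%. Strongly changed cytosines, with such a p and a difference of at least 33 points, numbered 6, or 1.55%, beside 0.986% of all cytosines. These shares are descriptions, since neighbouring cytosines are read on the same molecules.

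The authors place the core muscle enhancer 7 kb from the Nctc1 promoter, and its exact coordinates were not in the sources used here. The window 7 to 8 kb into the gene stands in for it and was almost unmethylated in both libraries. Its 18 cytosines of 9 CpGs, all in the stretch printed above, were at 4.55% in siCon (418 reads, interval 2.93 to 6.99%) and 4.55% in siH19 (396 reads, 2.89 to 7.07%). Single cytosines ranged from 0 to 22.2% in siCon and from 0 to 15.6% in siH19. The 6 cytosines without a methylated read in siCon had depths that allow a level of up to 8.33 to 33.3%, and the 9 in siH19 up to 9.09 to 33.3%, from 3 counts of the total. The difference within cytosines was -0.188 points (95% interval -2.99 to 2.61), and the 1 kb tile holding them had an adjusted p of 1 by the exact test stratified by cytosine. By strand it was 1.02 points on the plus and -2.40 points on the minus strand, both with intervals across 0. The upper bound of the difference over these 9 CpGs was thus 2.61 points, by counting error alone and with cytosines counted as independent. The window also had 8 covered cytosines in restriction sites, which the rule left out, and its remaining CpGs lacked the minimum depth. No stretch of intron 2 met the criteria of a CpG island used here, so the window was not tested as an island.

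The 233-base stretch also holds a TCGA, whose cytosines were left out by rule because bases at cut ends can be filled in during library preparation, although such bases were trimmed before methylation was called. It stood far from its neighbours. Its plus-strand cytosine at chr7:142551244 had 35 of 76 methylated reads in siCon and 29 of 63 in siH19, or 46.1% and 46.0%. Its minus-strand cytosine at chr7:142551245 had 13 of 26 and 28 of 38, or 50% (interval 32.1 to 67.9%) and 73.7% (58.0 to 85.0%). The minus strand was thus 23.7 points higher in siH19, with a Fisher's exact p of 0.0667 and an adjusted p of 1 among all cytosines with sites kept, while the plus strand of the same CpG moved by -0.0209 points. The next CpG, 8 bases away and outside any site, was at 7.69% and 15.6% on the plus strand and at 6.67% and 0% on the minus strand, where 0 of 29 reads were methylated. Its depths were 39 and 32 reads on the plus and 15 and 29 on the minus strand. On the other side of the site, chr7:142551233 had 36 and 29 on the plus and 12 and 9 on the minus strand. The methylated minus-strand reads at the site, 13 and 28, lay near 15 and 29. The part of these depths in the 23.7 points was not tested.

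**Figure D2:**
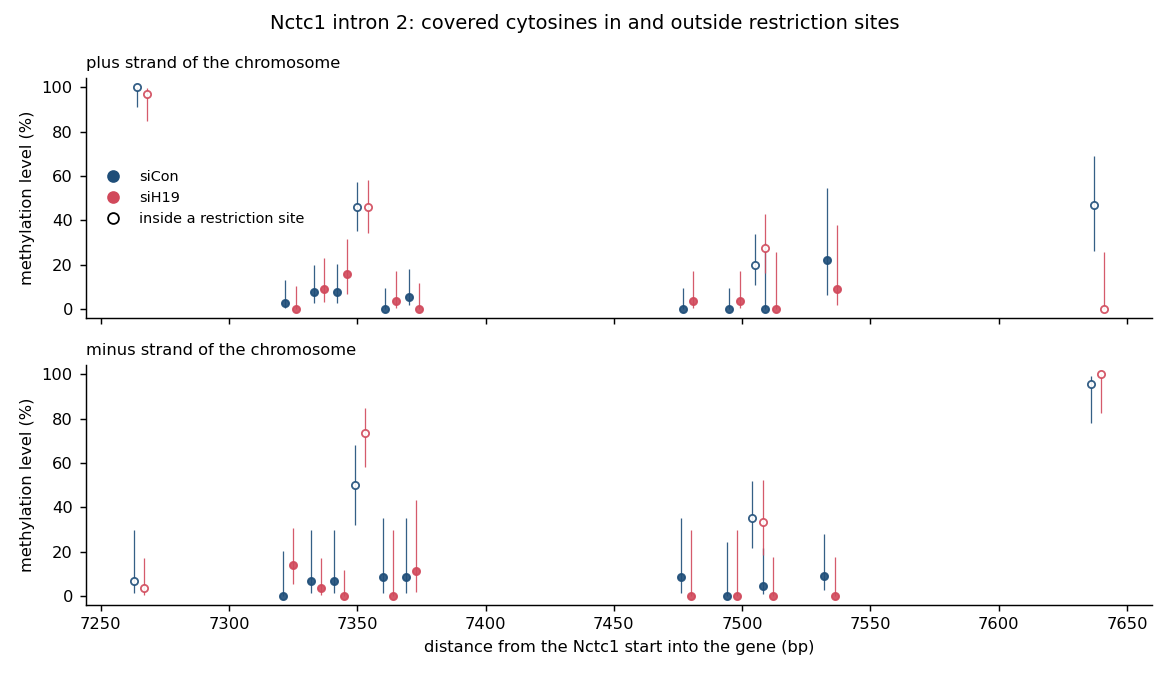
Methylation level (%) of single cytosines in and beside the printed stretch of Nctc1 intron 2 against the distance from the Nctc1 start in bp, for the plus strand (top) and minus strand (bottom), siCon in blue and siH19 in red, with Wilson 95% intervals as bars. Filled points, outside restriction sites, lie between 0 and 22.2% in siCon and between 0 and 15.6% in siH19, and hollow points, inside CCGG or TCGA, reach from 0 to 100%.

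The rest of Nctc1 was thinly covered. Over the 24 cytosines of the gene body, the pooled level was 13.1% in siCon (518 reads) and 22.2% in siH19 (572 reads), yet the difference within cytosines was -1.21 points (95% interval -4.42 to 1.99, adjusted p = 0.837, exact test stratified by cytosine). The pooled rise went with where the reads lay. Intron 2, at 5.65% and 4.85%, gave 460 of the siCon reads and 412 of the siH19 reads, whereas intron 1, at 72.7% and 58.7%, gave 22 and 75. When the reads of the body were summed instead, Fisher's exact test gave 9.08 points and an adjusted p of 0.000505, the opposite direction. In intron 1 the covered CpG, 670 bp into the gene by its minus-strand cytosine at chr7:142557927, had 10 of 10 methylated reads in siCon and 18 of 33 in siH19 on the minus strand (Fisher's exact p = 0.00819, adjusted p = 1). On its plus strand it was at 50% and 61.9%, the other way.

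The imprinting control region, taken as the window 2 to 4 kb upstream of H19 (chr7:142580143-142582143), was at 13.4% methylation in siCon (782 reads, interval 11.2 to 16.0%) and 13.9% in siH19 (410 reads, 10.9 to 17.6%). Its 20 covered cytosines of 10 CpGs ranged from 4.88 to 27.9% in siCon and from 0 to 39.1% in siH19, so none was near full methylation in either library. Of the 20, 10 were higher and 10 lower in siH19. The difference within cytosines was 0.283 points (95% interval -3.70 to 4.27, adjusted p = 1, exact test stratified by cytosine), in a family of upstream windows of which 2.43% were called. The median window of this kind in the genome was at 46.9% and 47.5%. Depth in siH19 was 0.524 of that in siCon in this window, and its part in the values was not tested.

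Coverage reached only the outermost of the 3 CTCF motifs. Motif 3 lies 3897 bp upstream of the H19 start and had 4 covered cytosines. On the plus strand they had 3 of 41 and 2 of 41 methylated reads in siCon, and 1 of 25 and 0 of 25 in siH19, the last of which allows a level of up to 12%. On the minus strand they had 3 of 52 and 6 of 52 in siCon, and 2 of 18 and 1 of 18 in siH19. All 4 were thus below 12% in both libraries. Within 150 bp of the motif 10 cytosines were at 11.8% in siCon and 8.41% in siH19, with a difference of -3.28 points (95% interval -7.84 to 1.28). Motifs 1 and 2 had no covered cytosine within 150 bp.

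**Figure D3:**
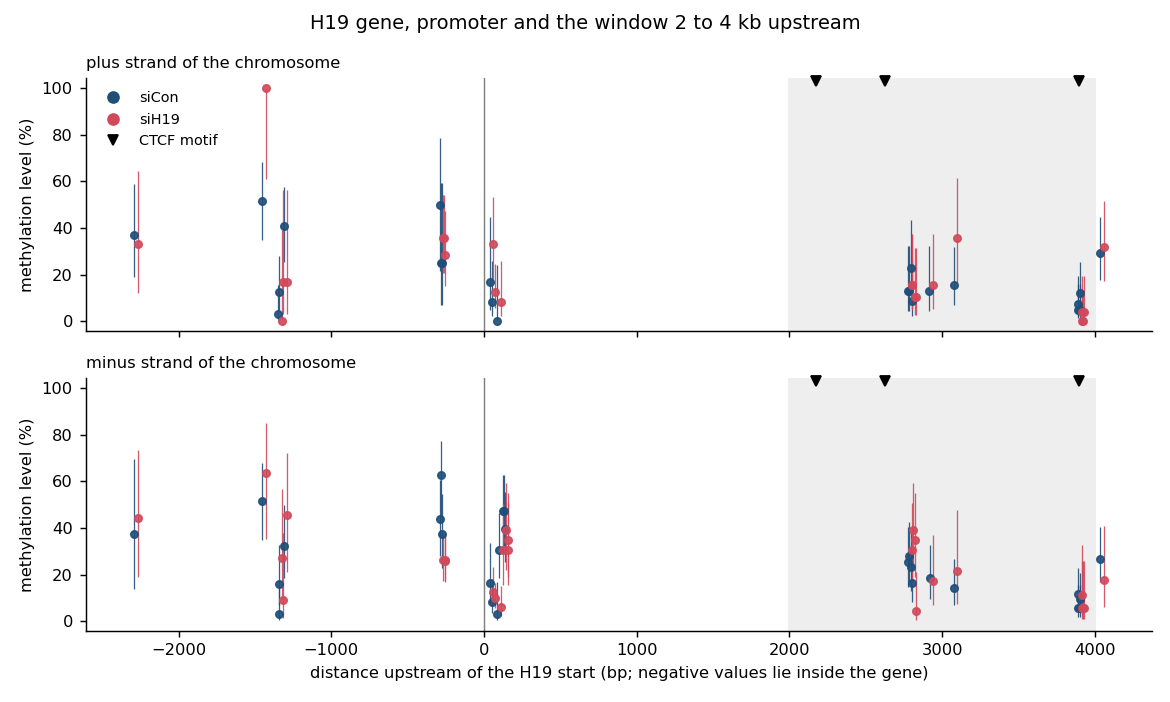
Methylation level (%) of single cytosines against the distance upstream of the H19 start in bp, plus strand (top) and minus strand (bottom), siCon in blue and siH19 in red, with Wilson 95% intervals as bars, the window 2 to 4 kb upstream in grey and the CTCF motifs as triangles. Within the grey window all points lie at or below 39.1%, and inside the gene the libraries stand farthest apart on the plus strand, with 16 of 31 methylated reads in siCon and 6 of 6 in siH19.

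The promoter window of H19 was at 30.0% in siCon (440 reads, interval 25.9 to 34.4%) and 21.1% in siH19 (720 reads, 18.3 to 24.2%). Over its 16 cytosines the difference within cytosines was -6.05 points (95% interval -11.0 to -1.08), with a p of 0.022 and an adjusted p of 0.159 by the exact test stratified by cytosine. In a window of 2000 bp on either side it was -3.48 points over 24 cytosines (adjusted p = 0.460, same exact test). None of the 4 testable promoter windows of the domain was called, where 6.82% of all promoters were. With reads summed over the window the drop was -8.89 points with an adjusted p of 0.00775 by Fisher's exact test, a rule that called 16.8% of all promoters.

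The largest drop at H19 was on 1 strand of 1 fragment. In the fragment inside the gene the 3 minus-strand cytosines were at 47.9% in siCon (96 reads) and 26.2% in siH19 (202 reads), a difference of -21.6 points (95% interval -33.1 to -10.1). On the plus strand of the same 3 CpGs both libraries were at 33.3% (24 and 84 reads). At the first of these CpGs, chr7:142577864, both strands were lower in siH19, with differences of -14.3 points for the plus and -17.3 for the minus strand, and at the others the strands went in opposite directions. Just upstream of the start, in the printed stretch, the 3 CpGs nearest the gene were at 8.33% and 16.7% on the plus strand and at 9.24% and 9.76% on the minus strand. The next 4, covered on the minus strand alone, were at 41.2% in siCon and 33.7% in siH19 (difference -7.53 points, 95% interval -19.9 to 4.81). On the minus strand the printed promoter was thus lower next to the start than beyond it in both libraries. The 4 cytosines beyond it lie on 1 fragment strand, so their 153 and 92 reads are the same molecules counted at several cytosines. On the plus strand, covered only next to the start, chr7:142578191 reached 33.3% in siH19 (8 of 24 reads).

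The lowest p of any single cytosine in the domain was at chr7:142577873 on the minus strand, in the H19 exon 270 bp from the start, where Gm27786 is also annotated. It had 20 of 32 methylated reads in siCon (62.5%) and 17 of 66 in siH19 (25.8%), 36.7 points lower, with a Fisher's exact p of 0.000738 and an adjusted p of 0.617. On the other strand of the same CpG the levels were 25.0% and 35.7%. The 1 kb tile around it, chosen for mention after its values were seen, had 6 cytosines and a difference of -16.8 points (95% interval -26.9 to -6.74, p = 0.0017, adjusted p = 0.0654, exact test stratified by cytosine). Over the whole body of H19, 16 cytosines were at 32.7% and 30.1%, with a difference of -6.36 points (95% interval -13.5 to 0.777, adjusted p = 0.436, exact test stratified by cytosine). Of its 6 fragment strands 3 were higher, 2 lower and 1 equal in siH19.

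Igf2 was the best covered member, with 166 cytosines and 3906 reads in siCon and 5015 in siH19. Its body was at 38.6% (interval 37.0 to 40.1%) and 38.2% (36.8 to 39.5%). The difference within cytosines was 2.55 points (95% interval 0.849 to 4.24, p = 0.0054, adjusted p = 0.0997, exact test stratified by cytosine), with 93 cytosines higher, 65 lower and 8 equal in siH19. None of the 6 testable bodies was called, beside 3.48% of all bodies. With a minimum of 10 reads the Igf2 body passed, at 3.31 points and an adjusted p of 0.0263 over 117 cytosines.

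Within Igf2 1 CpG island was called, and it was the only called island of the 4 tested in the domain, where 5.39% of all islands were called and 3.56% were called higher. It lies at chr7:142658223-142659973, 6843 to 8593 bp inside the outermost annotated start, and 1 of the 5 annotated Igf2 transcripts starts in it. Of its 81 covered cytosines 39 lay in Igf2 exons and 42 in introns, 10 of the latter in an exon of the antisense gene Igf2os. The difference within cytosines was 4.81 points higher in siH19 (95% interval 2.53 to 7.08, adjusted p = 0.00437, exact test stratified by cytosine), with 54 cytosines higher, 25 lower and 2 equal. It was 4.45 points on the plus and 5.27 points on the minus strand. Yet the pooled level was lower in siH19, at 39.4% (2928 reads, interval 37.7 to 41.2%) against 42.7% (1987 reads, 40.5 to 44.9%).

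Split by restriction fragment and strand, the island gave 12 units, of which 11 were higher in siH19 and 1 lower. The largest differences were in units with low levels. On the minus strand at chr7:142659078-142659110 the level was 6.12% in siCon (49 reads) and 26.5% in siH19 (83 reads), and at chr7:142659392-142659411 it was 8.33% (48 reads) and 22.2% (252 reads). The plus strand facing the first of these was at 11.6% (189 reads) and 18.0% (594 reads). Depth within this plus-strand unit was uneven, with 23 and 74 reads at chr7:142659077 and 46 and 147 at chr7:142659082. Whether molecules were counted more than once in it was not tested. Units with higher levels were mixed. The plus strand at chr7:142659523-142659605 was at 45.8% (240 reads) and 52.4% (359 reads), a difference of 6.62 points (95% interval 0.665 to 12.6), and the minus strand at chr7:142659825-142659911 at 47.7% (44 reads) and 54.5% (55 reads). Smaller differences were seen on the plus strand at chr7:142659205-142659353, at 63.9% (404 reads) and 66.9% (329 reads), and on the minus strand at chr7:142659524-142659606 at 50.7% (513 reads) and 52.1% (491 reads). The last 2 units gave 20.3% and 25.8% of the island's reads in siCon but 11.2% and 16.8% in siH19, while the plus strand at chr7:142659077-142659109, a low unit, rose in share from 9.51% to 20.3%. The pooled level, which counts every read alike, was thus lower although the levels of 11 units were higher.

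**Figure D4:**
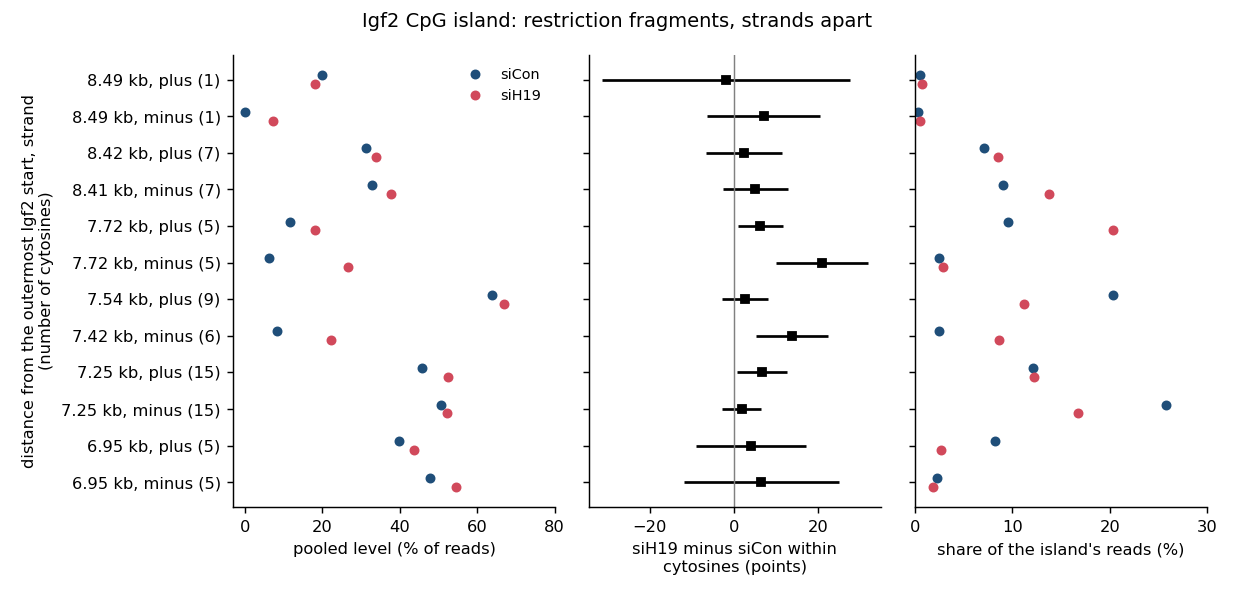
The called Igf2 CpG island by restriction fragment and strand, labelled by distance from the outermost Igf2 start in kb and by number of cytosines: pooled level (% of reads, left), difference within cytosines in points with its 95% interval (middle) and share of the island's reads (%, right), siCon in blue and siH19 in red. Of the 12 units 11 lie above 0 in the middle panel, and in the right panel reads were spread unequally between the libraries.

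The call did not hold under every treatment of the reads. With the variance scaled by the spread between fragments and strands, the island's p was 0.00295 and its adjusted p 0.919, and with a minimum of 20 reads its adjusted p was 0.0883. Fisher's exact test on summed reads gave the opposite direction, -3.26 points with an adjusted p of 0.134. The 1 kb tile inside the island (chr7:142659001-142660000, 65 cytosines, centred near the Igf2 start at chr7:142659489) was the only called tile of the 20 tested, beside 2.21% of all tiles called and 1.45% called higher, at 5.05 points (95% interval 2.59 to 7.51, adjusted p = 0.0137, exact test stratified by cytosine). It shares its reads with the island and is no separate result. With reads summed, 2 tiles of the domain passed Fisher's exact test, as did 6.52% of all tiles.

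The other Igf2 islands moved little. The island at chr7:142660176-142661486 was at 26.1% in siCon and 20.9% in siH19, with a difference within cytosines of -0.103 points (95% interval -3.84 to 3.63). The island at chr7:142663781-142664541 was at 33.4% and 33.7%, with a difference of -0.423 points (95% interval -5.20 to 4.36). Both had an adjusted p of 1 by the exact test stratified by cytosine. In the first the strands went apart, at 4.38 points on the plus and -5.34 points on the minus strand. Around the Igf2 start at chr7:142661305, 7 minus-strand cytosines were at 37.5% in siCon (192 reads) and 9.52% in siH19 (42 reads). The 7 on the plus strand were at 28.8% (520 reads) and 30.7% (257 reads). Each of the minus-strand cytosines had only 6 reads in siH19. They lie on the same fragment strand, so the 42 reads are the same few molecules counted at several cytosines.

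The windows of 500 bp on either side of the remaining Igf2 starts held few cytosines. Around the starts at chr7:142657466 and chr7:142657496, the same 7 cytosines were at 53.8% and 44.7%, with a difference within cytosines of -0.508 points (95% interval -11.3 to 10.3). Around the outermost start none was covered, and the promoter window of 1 kb there had 8 cytosines at 31.1% and 26.1% (difference -4.98 points, 95% interval -14.0 to 4.08, adjusted p = 0.669, exact test stratified by cytosine). With soft-masked cytosines left out the difference was -11.1 points (adjusted p = 0.272, same exact test). The last 4 kb of the gene had 2 covered cytosines, on the same strand, at 4.35% (23 reads) and 28.1% (32 reads). The differentially methylated regions of Igf2 have no coordinates in the sources used here, so they were read through these islands, starts and tiles.

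Of the 16 cytosines with an unadjusted p under 0.05, 11 lay in the body of Igf2, which held 166 of the 387 cytosines tested. The lowest p among those higher in siH19 was at chr7:142658415 on the minus strand, in an Igf2 exon of the called island, with 12 of 40 methylated reads in siCon and 50 of 89 in siH19 (Fisher's exact p = 0.00755). In intron sequence, chr7:142664231 on the plus strand had 6 of 30 and 24 of 52 (Fisher's exact p = 0.0196). In the called island, chr7:142659082 on the plus strand had 7 of 46 and 47 of 147 (Fisher's exact p = 0.0374). Both these and the next had an adjusted p of 1. The exonic cytosine at chr7:142659401 on the minus strand had 0 of 8, which allows a level of up to 37.5%, and 18 of 42 (Fisher's exact p = 0.0387). The intronic cytosine at chr7:142660884 on the plus strand had 28 of 75 and 22 of 37 (Fisher's exact p = 0.0426). Its minus strand went the other way, with 14 of 28 and 1 of 6. At chr7:142658415 depth was 40 and 89 reads, but the minus strand of the CpG at chr7:142658384, on the same fragment, had 20 and 44. Likewise chr7:142664231 had 30 and 52 beside 15 and 26 at chr7:142664229, and chr7:142659082 had 46 and 147 beside 23 and 74 at chr7:142659077. Whether molecules were counted more than once there was not tested, so these p-values may be too low.

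Of the Igf2 cytosines lower in siH19, the 3 that the naming rule took had no methylated read in that library. The plus-strand cytosine at chr7:142657011, in an intron, had 5 of 6 methylated reads in siCon and 0 of 7 in siH19, which allows up to 42.9% (Fisher's exact p = 0.00466). Also in introns, chr7:142664274 on the plus strand had 4 of 15 and 0 of 26, which allows up to 11.5% (Fisher's exact p = 0.0135). The minus-strand cytosine at chr7:142659576 had 6 of 32 and 0 of 32, which allows up to 9.38% (Fisher's exact p = 0.0242), while the plus strand of its CpG had 0 of 16 and 4 of 24, the other way. All 3 had an adjusted p of 1. The last lies in the called island, whose other cytosines were on balance higher, so neighbouring cytosines did not share a direction. Every one of these positions also lies in an intron of Gm49394, annotated across Igf2.

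The muscle genes beside the imprinted pair ranged from nearly full to intermediate methylation. The promoter window of Tnni2 had 6 cytosines at 97.6% in siCon (124 reads, interval 93.1 to 99.2%) and 91.7% in siH19 (109 reads, 85.0 to 95.6%). The difference within cytosines was -5.82 points (95% interval -11.0 to -0.599, p = 0.0662, adjusted p = 0.293, exact test stratified by cytosine). In the printed stretch 1 CpG was covered outside sites, and it had 16 of 16 and 20 of 20 methylated reads on its strands in siCon, and 19 of 23 and 12 of 16 in siH19. Both strands were lower in siH19, the minus strand with a Fisher's exact p under the unadjusted threshold. The body of Tnni2 had 2 cytosines, at 95.6% and 97.3%.

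Tnnt3, the fast skeletal troponin T gene, had 12 covered cytosines in its body and none in its promoter window. Its pooled level was 26.3% in siCon (209 reads) and 39.3% in siH19 (163 reads), and the difference within cytosines was 5.26 points (95% interval -2.75 to 13.3, adjusted p = 0.598, exact test stratified by cytosine). The 2 covered places went apart. Near the end of the gene 2 CpGs were at 12.3% and 23.7% on the plus strand and at 19.1% and 28.6% on the minus strand. At chr7:142505097-142505188 the 4 CpGs were at 50% and 48.8% on the plus strand and at 58.3% and 55% on the minus strand.

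Lsp1, which encodes an actin-binding protein of leukocytes, was mosaic. Its 21 cytosines had a median level of 93.3% in siCon and 93.1% in siH19, but the cytosines near chr7:142471081, chr7:142475088 and chr7:142476460 had no methylated read in either library. The pooled level was 59.2% (395 reads) and 70.0% (424 reads), beside a difference within cytosines of 1.07 points (95% interval -2.21 to 4.34, adjusted p = 0.873, exact test stratified by cytosine). With reads summed over the body, Lsp1 and Tnnt3 passed Fisher's exact test (adjusted p = 0.00494 and 0.0291), as did 37.4% of all bodies. Syt8, a synaptotagmin gene, had 1 covered cytosine, at 73.0% (37 reads) and 73.3% (15 reads).

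Mrpl23, which encodes a protein of the mitochondrial ribosome, had an almost unmethylated promoter, the lowest of the 6 promoter windows with a covered cytosine. The 45 cytosines of its island and promoter window were at 0.179% in siCon (1116 reads, interval 0.0492 to 0.651%) and 1.09% in siH19 (921 reads, 0.591 to 1.99%). No methylated read was seen at 43 of them in siCon and 39 in siH19. The difference was 0.537 points (95% interval -0.0208 to 1.09, adjusted p = 0.378, exact test stratified by cytosine). Over the body, which includes the island, 49 cytosines were at 7.08% and 6.09%, with a difference of -0.0159 points (95% interval -0.972 to 0.940).

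Ins2, an insulin gene, had no cytosine with enough reads outside restriction sites in its body or promoter window. The annotated GENCODE body is long and joins Ins2 to sequence beyond it, and the shorter RefSeq unit at chr7:142678656-142679726, with 11 CpGs, had no read in either library.

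**Figure D5:**
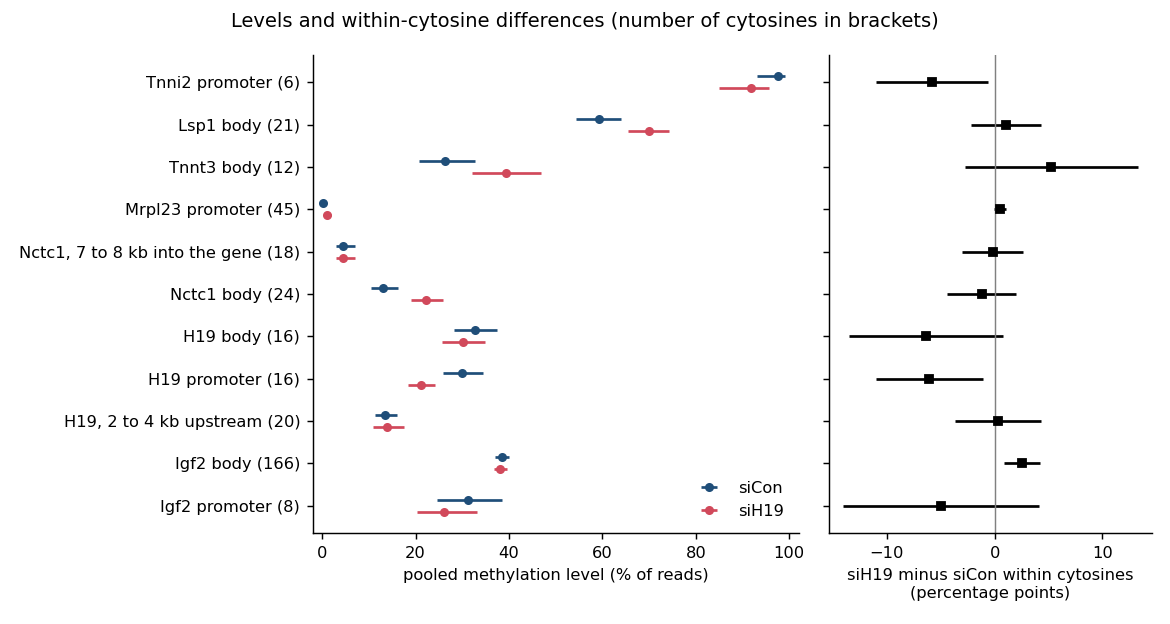
Pooled methylation level (% of reads) with Wilson 95% intervals in siCon (blue) and siH19 (red), left, and the difference within cytosines, siH19 minus siCon, in percentage points with its 95% interval, right, for member windows in chromosomal order, with the number of cytosines in brackets. The pooled levels of the Lsp1, Tnnt3 and Nctc1 bodies stand apart on the left, whereas their differences within cytosines have intervals across 0 on the right.

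The gaps between the genes were sparse. From Tnnt3 to Mrpl23, 5 cytosines were at 63.0% in siCon (92 reads) and 33.3% in siH19 (66 reads), and all 5 were lower, with a difference within cytosines of -15.7 points (95% interval -28.3 to -3.05). Too few of them fell into any one kilobase for a test. From Nctc1 to H19, 11 cytosines were at 48.2% and 55.1% (difference -0.848 points, 95% interval -7.02 to 5.32). From H19 to Igf2, which includes the imprinting control region, 47 cytosines were at 20.4% (1653 reads) and 15.4% (1121 reads), with a difference of -1.40 points (95% interval -4.12 to 1.33).

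Between Igf2 and Ins2, 27 cytosines were at 58.5% and 49.6%, and the difference within cytosines was 2.03 points (95% interval -2.28 to 6.33). The strands parted here too, at -3.29 points on the plus and 8.03 points on the minus strand. A single cytosine was covered between Mrpl23 and Nctc1, with every read methylated in both libraries, and between Lsp1 and Tnnt3 there was none.

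Levels on the 2 strands of the same CpG were also compared within each library. At the 164 CpGs covered on both strands, the median absolute difference between strands was 6.34 points within siCon and 6.62 points within siH19. Between libraries it was 6.25 points for plus-strand and 8.21 for minus-strand cytosines. By these medians, which include CpGs without a methylated read, differences between libraries were close in size to differences between strands. At an unadjusted p under 0.05 by Fisher's exact test, strands differed at 2 CpGs in siCon and 8 in siH19. The libraries differed at 6 on the plus and 9 on the minus strand. Strands are not replicates, so these values are descriptions. Both strands were higher in siH19 at 37 of these CpGs, both lower at 30, and they went in opposite directions at 56.

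At restriction sites the strands of 1 CpG stood much farther apart, by a median of 70.6 points in siCon and 70.8 points in siH19 over 130 CpGs. With these cytosines kept, 1 of the 709 cytosines of the domain was called, in Lsp1, beside 0.236% of all cytosines.

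Genes that write, read or respond to this imprint lie outside the domain and were compared by promoter window. Of 24 such genes 19 were testable, and 3 were called, all higher in siH19, beside 6.82% of all promoters called and 4.61% called higher. They were Igf2r, the receptor that clears the Igf2 protein (31.5% and 39.3%, 6.80 points, adjusted p = 1.32e-06), Smc1a, a cohesin subunit (24.5% and 35.6%, 6.20 points, adjusted p = 0.0433), and Rad21, another cohesin subunit (0.332% and 0.687%, 0.486 points, adjusted p = 0.0221), by the exact test stratified by cytosine. The median difference over the 19 was 0.0415 points, beside 0.0884 points over all promoters. Ctcf itself was at 0.752% and 0.653%, and the maintenance methyltransferase Dnmt1 at 73.3% and 73.9%. This list and those below were chosen with earlier results of these data known, so their counts are descriptions. Scaling of the variance by fragments and the other alternatives are given for the domain only, not for these promoters.

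Over all promoters 6.82% were called, 4.61% were called higher, and the median difference was 0.0884 points. These values stand beside each list that follows. Promoters of other imprinted genes with a germline mark gave 4 testable windows of 6, with 1 called. Kcnq1ot1, the non-coding RNA of the neighbouring imprinted cluster, was at 30.6% in siCon and 48.0% in siH19 (16.2 points, 95% interval 7.11 to 25.2, adjusted p = 0.02, exact test stratified by cytosine). Peg3 was at 40% and 35.9%, Peg10 at 31.9% and 33.7%, and Plagl1 at 78.0% and 79.6%. All 4 were above the 13.4% and 13.9% of the window upstream of H19. Of 10 muscle identity genes 7 were testable and 0 were called, with a median difference of 1.27 points. Of 8 genes of other lineages 5 were testable and 1 was called, Sox17, an endoderm regulator (43.7% and 52.4%, 7.31 points, adjusted p = 0.0368, exact test stratified by cytosine), with a median difference of 6.27 points.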

How the data were processed

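CpG methylation was read from 2 deposited libraries of myotubes, siCon and siH19, grouped by their labels. Per the methods, the authors digested DNA with TaqαI and MspI, aligned reads with Bismark in non-directional mode, and trimmed filled-in bases before calling. Duplicate removal was not stated. The submitters' processing notes named mm10 and bcl2fastq 1.8.4. All 6041258 positions used fell on CpGs of GRCm38. The deposited files gave, per cytosine and strand, methylated and total read counts in a text field, and a deposited score that repeats this fraction, which was used only to check the counts (0 mismatches). Counts were not normalised. The median depth was 12 reads in siCon and 13 in siH19.

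Single cytosines were compared with Fisher's exact test, two-sided. Regions with at least 5 cytosines (promoters, bodies, upstream windows, CpG islands, 1 kb tiles) were tested by a two-sided exact conditional test stratified by cytosine, with a normal approximation above 5000 possible values. Benjamini-Hochberg adjustment ran over all features of a kind, called at 0.05. CpG islands had at least 200 bp, 50% GC and an observed to expected ratio of 0.6. Genes came from GENCODE vM21 basic. The tests were tried on simulated data in which each cytosine was drawn independently. Such data cannot show how the tests behave where neighbouring cytosines share molecules. Python 3.11.15, numpy, pandas, scipy and numba were used. Named cytosines were the 5 with the lowest p in each direction, since none passed the adjusted threshold, and those on CTCF motifs. Members and lists were chosen with earlier results of these data known. Alternatives are given under the closing section. Of the 9 members 4 were in the RefSeq promoter table, which was not used for the printed stretches. Those came from the genome.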

Additional observations from a re-analysis of the deposited data

Results flagged for a closer look

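Cytosines inside restriction sites were left out of the comparisons above. When they were kept and adjusted together with all others, 1 cytosine of the 709 then covered in the domain passed an adjusted p of 0.05, beside 0.236% of all cytosines. It lies in a CCGG in the body of Lsp1, at chr7:142471124 on the minus strand. It had 21 of 54 methylated reads in siCon and 43 of 55 in siH19, 39.3 points higher (Fisher's exact p = 3.86e-05, adjusted p = 0.0241). The plus-strand cytosine of the same CpG went the other way, with 26 of 47 and 8 of 37 methylated reads, a difference of -33.7 points. On 1 side of this site, chr7:142471081 had 27 and 8 reads on the plus strand and 32 and 11 on the minus strand. On the other side, the CpG at chr7:142471201 had 20 and 28 on the plus and 23 and 44 on the minus strand. Methylated reads at the site lay near the first depths on the plus strand and near the second on the minus strand. The part of these depths in the result was not tested. At the 130 restriction-site CpGs of the domain covered on both strands, the strands of 1 library differed by at least 33 points at 91 in siCon and 94 in siH19, beside 6 and 5 of the 164 CpGs outside sites. The part of this strand difference in the result was not tested.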

How the results depend on the processing

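No leave-one-out value was possible with 1 library per group, and no paired analysis was possible because each group has a single library. With reads summed over a region and tested by Fisher's exact test, 1 promoter window (H19), 3 bodies (Lsp1, Tnnt3, Nctc1), 2 tiles and 0 islands were called, in place of 0, 0, 1 and 1. Under it the Nctc1 body turned to 9.08 points, the Igf2 body to -0.391, the called island to -3.26, the island at chr7:142663781 to 0.321 and the called tile to -4.29. By construction this test counts the spread of reads over cytosines as a difference. With the variance scaled by the spread between fragments, 0 islands and 0 tiles were called. A minimum of 10 reads gave 1 body (Igf2) and 0 tiles, and one of 20 reads gave 0 islands and 0 tiles. With restriction sites kept 1 cytosine was called, and 6 were by an unadjusted p with 33 points. The cause of these shifts was not tested.

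The remaining turns of direction were in values whose intervals lie across 0 or that were not called. The H19 window 2 to 4 kb upstream went to -0.829 with 20 reads, to -0.312 with strands summed and to -0.00675 when taken from 1 to 5 kb. The H19 body went to 0.374 by an unweighted mean. The Mrpl23 body went to 0.0689, 0.443 and 0.456 with 10 reads, 20 reads and strands summed, and the Nctc1 body to 0.871 with 20 reads and 0.699 with sites kept. With sites kept the Tnni2 promoter went to 2.06, the Mrpl23 promoter and island to -0.172, and the island at chr7:142663781 to 2.29. That island went to 1.58, 6.91 and 0.272 with 10 reads, 20 reads and strands summed, and the island at chr7:142660176 to 2.25, 0.958 and 0.571. Of the other comparisons of single regions and cytosines 156 kept their direction and, where a test was made, their side of the threshold (the unweighted means have none), 5 lost a call and 4 gained one. The median depth of 23 reads per domain cytosine limits what single cytosines can show.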
